A study of Rattus norvegicus with 6 samples.

Results

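The serine/arginine-rich (SR) splicing factors were followed in transplanted rat hearts from young and from aged donors, taken on postoperative day 1. They are 10 of the 22250 genes in the deposited rat expression table, taken by their names: Srsf1, Srsf2, Srsf3, Srsf4, Srsf5, Srsf6, Srsf7, Srsf9, Srsf10 and Srsf11. Poly(A)-selected RNA from left ventricular myocardium was sequenced for 3 young donor hearts (animals 3, 13 and 15; 10 weeks old) and 3 aged donor hearts (animals 3, 4 and 7; 1 year old). All 6 donors were Sprague-Dawley rats with the genotype given as WT, and every heart had been kept cold in University of Wisconsin solution and then transplanted heterotopically into a young rat, so storage and transplantation were common to both groups and an unoperated heart was not part of the comparison. Animal numbers count within a group, and young donor heart 3 and aged donor heart 3 are different animals. The comparison asks how the mRNA of this splicing factor family differed with the age of the donor.

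SR proteins bind short exonic sequences through RNA recognition motifs and recruit the splicing machinery to nearby splice sites through a tail rich in arginine and serine. Kinases of the SRPK and CLK families phosphorylate that tail, transportins carry the proteins into the nucleus, and several members also escort spliced mRNA to the cytoplasm. In heart muscle the family is known for shaping the exon choice of sarcomeric and calcium-handling transcripts during postnatal growth. Most SR genes also make a transcript form with a so-called poison exon that is degraded instead of translated, and a count per gene sums all transcript forms.

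Depth was alike, with 21457509 to 22277905 reads on genes in young donor hearts and 22508040 to 24560869 in aged donor hearts. The makeup of the libraries was not. The mitochondrial genome took 21.7%, 21.7% and 11.9% of the reads in young donor hearts 3, 13 and 15 and 6.57% to 10.3% in aged donor hearts, and the TMM factors (trimmed mean of M values), which correct library sizes for such shifts, ran from 0.733 to 1.24. The 11 cardiomyocyte markers summed to 12960 to 101400 CPM (scaled counts relative to library size) in young donor hearts and to 595.1 to 7685 CPM in aged donor hearts, with 0 higher and 5 lower past the limits given below. Of 9 tested neutrophil markers 7 were higher (17.2 to 154.3 CPM against 363.5 to 1360 CPM), and the untested marker, Mpo, had 0 to 3 reads per heart. Of 10 macrophage markers 5 were higher (369.3 to 2351 CPM against 3683 to 7089 CPM). Of 6 tested T cell markers 2 were higher. The sum over all 8 listed, the untested Cd3d and Cd5 included, was 29.4 to 80.7 CPM against 96.3 to 145.4 CPM. Cd8a, not past the limits, had the largest difference in CPM (means of 19.7 and 83.7), while the groups overlapped for Cd3e (0.82 and 1.17) and Cd3g (0.77 and 0.60). Of 8 endothelial markers 1 was higher (1348 to 1996 CPM against 1243 to 1821 CPM). Of 7 fibroblast markers 2 were lower (6555 to 8443 CPM against 2577 to 4779 CPM). These were the markers with the highest means, Col1a1 (2051 and 670.2) and Col3a1 (4063 and 1623). The groups overlapped for the other 5, with Pdgfra (175.7 and 308.3) and Pdgfrb leaning higher and Dcn, Lum and Postn lower. Of 3 red blood cell markers 1 was lower (130.6 to 1137 CPM against 49.4 to 606.9 CPM). Of all genes tested, 13.2% were higher and 19% lower past the limits. Young donor heart 15 lay between the other 2 young donor hearts and the aged donor hearts in the cardiomyocyte, neutrophil and macrophage sums. The members' differences and the counts of the lists around them are therefore also given without it. Fits without a heart singled out in this way are a description, and their p-values are not a separate test. In bulk tissue, fewer cells of a type and less RNA per cell cannot be told apart, a graft also holds blood cells of its recipient, and the part of cell makeup in the SR values was not tested.

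Srsf5 (ENSRNOG00000005513) lies at chr6:104611026-104615302 on the plus strand of Rnor_6.0, Srsf7 (ENSRNOG00000027360) at chr6:2880518-2886465 on the minus strand, Srsf9 (ENSRNOG00000001163) at chr12:47039716-47046022 on the minus strand and Srsf2 (ENSRNOG00000000248) at chr10:105792779-105795958 on the minus strand, and 0 other genes of the table overlap any member. The promoters of these 4 genes are shown because Srsf5 was the member that leaned lower in aged donor hearts, Srsf7 and Srsf9 were the members that differed most, and Srsf2 was the most abundant in aged donor hearts. The sequences are the 250 bases before each start site in the RefSeq table of the build GRCr8, a different build from that of the counts, read 5′ to 3′ on the strand of the gene. They lie at chr6:106336506-106336755 (plus strand) for Srsf5, chr6:20563802-20564051 (plus strand) for Srsf7, chr12:46945148-46945397 (minus strand) for Srsf9 and chr10:102554142-102554391 (minus strand) for Srsf2. Capitals mark matches, on either strand, to the GC box GGGCGG, the CCAAT box CCAAT, the TATA box TATAAA, the cyclic AMP response element core TGACG and the E box CACGTG, and GC boxes that overlap run together. Srsf7 is on opposite strands in these builds, as were 8 of the 9 genes compared within 500000 bases of it and 0 of the genes compared around each other member, and its bases follow the strand of the RefSeq table.
Srsf5: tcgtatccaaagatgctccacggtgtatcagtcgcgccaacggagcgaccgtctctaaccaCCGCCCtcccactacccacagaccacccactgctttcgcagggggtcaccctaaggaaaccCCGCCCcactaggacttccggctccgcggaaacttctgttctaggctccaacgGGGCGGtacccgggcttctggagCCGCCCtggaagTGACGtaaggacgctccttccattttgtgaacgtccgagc
Srsf7: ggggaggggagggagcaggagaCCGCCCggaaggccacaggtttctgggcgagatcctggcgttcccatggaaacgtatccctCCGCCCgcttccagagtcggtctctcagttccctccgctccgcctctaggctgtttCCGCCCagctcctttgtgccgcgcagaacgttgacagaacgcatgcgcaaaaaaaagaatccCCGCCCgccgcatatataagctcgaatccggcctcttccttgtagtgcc
Srsf9: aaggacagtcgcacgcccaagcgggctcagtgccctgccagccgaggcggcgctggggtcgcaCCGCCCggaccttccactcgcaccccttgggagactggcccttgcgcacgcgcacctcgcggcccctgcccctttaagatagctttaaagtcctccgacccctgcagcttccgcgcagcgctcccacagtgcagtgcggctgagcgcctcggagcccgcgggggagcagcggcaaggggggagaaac
Srsf2: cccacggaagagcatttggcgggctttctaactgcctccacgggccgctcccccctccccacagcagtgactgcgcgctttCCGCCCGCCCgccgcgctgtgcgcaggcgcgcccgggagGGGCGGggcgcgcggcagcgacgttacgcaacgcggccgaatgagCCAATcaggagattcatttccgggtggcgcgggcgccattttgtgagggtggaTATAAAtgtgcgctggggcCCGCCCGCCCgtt

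In this window Srsf5 held 4 GC boxes and 1 response element core, and Srsf7 held 4 GC boxes with 0 matches to the other motifs. Srsf9 held 1 GC box alone. Srsf2 held 5 GC boxes, 1 CCAAT box and 1 TATA box, the last starting at -32 from the start site. All 10 members had an entry, with 11 promoters in all since Srsf10 had a pair. Of the 11 member promoters, 8 held a GC box, against 30.5% of 33469 rat promoters in the same window, 6 held the response element core against 18.2%, 5 a CCAAT box against 34%, 2 a TATA box against 12.9% and 1 an E box against 5.59%. The share of G and C was 61.2% for Srsf5 against a median of 51.2% over all promoters, and 10 of the 11 member promoters were above that median (58.8% to 77.2%), the exception being 1 of the pair of Srsf10 at 37.6%. A match describes letters only and says nothing about binding.

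Most SR factors had small differences between the donor ages, with positive log2 fold changes in 9 of 10 members and a negative one in Srsf5, whose sign turned with library totals as the scaling. All 10 passed the filter on low counts, having 227 to 11386 reads in every heart. By the limits the study set (more than 1.5-fold or less than 0.67-fold, unadjusted p under 0.05), 2 of 10 members were higher in aged donor hearts (Srsf9 and Srsf7), where 13.2% of the 13784 genes tested by edgeR's quasi-likelihood test were higher. 0 members were lower, where 19% of all genes were. The other 8 passed neither limit. In 4 members (Srsf2, Srsf4, Srsf7 and Srsf9) every aged donor heart exceeded every young donor heart, in 6 the groups overlapped and in 0 the aged donor hearts were all lower. Of the 13784 genes tested, the aged donor hearts were all higher in 2891 and all lower in 2846, which is 41.6% in either direction. The median log2 fold change was 0.17 over the members and 0.016 over all genes tested. Scaling by library totals alone moved these medians to 0.60 and 0.455, and the genes past the limits from 1815 higher and 2621 lower to 3147 higher and 1441 lower, with the same 2 members higher and 0 lower.

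After Benjamini-Hochberg adjustment over all genes, 0 members and 0% of all genes had an adjusted p under 0.05 by edgeR, while 4731 genes had an unadjusted p under 0.05. At the same adjusted limit DESeq2 called 3592 of 13784 genes, with 2 of 10 members among them (Srsf7 and Srsf9). Limma-voom with quality weights called 8416 of 13784, with 4 of 10 members (Srsf5, Srsf7, Srsf9 and Srsf10). Without young donor heart 15 edgeR called 6815 of 14109 genes and the same 4 members. In each of these fits the share of members called was below that of all genes. With 3 hearts against 3, an exact permutation test over the 10 splits cannot go below p = 0.1, two-sided. The labels name no processing batches, and the p-values measure the spread between these hearts only.

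**Figure D1:**
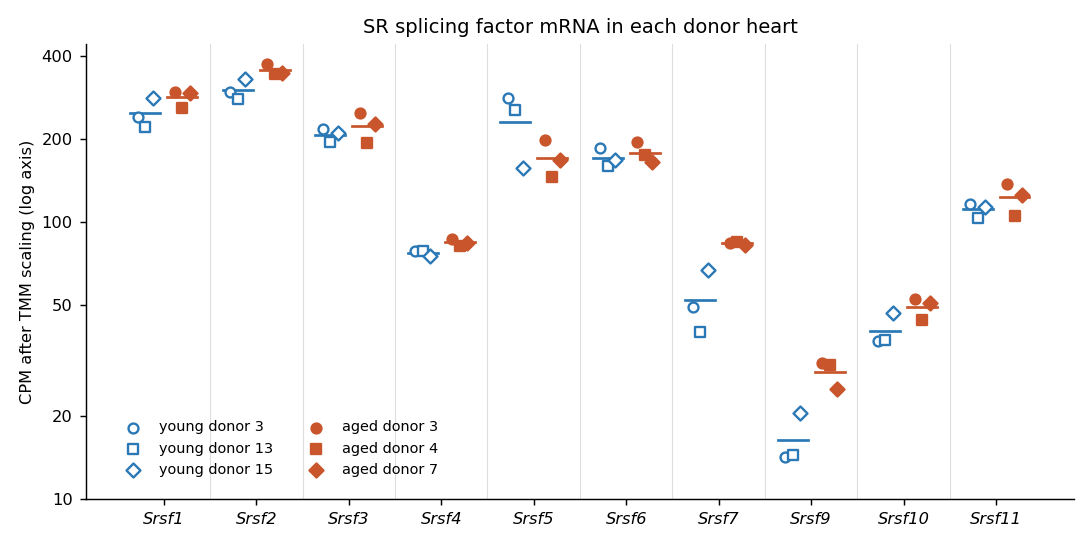
Expression of the 10 SR splicing factors in each heart. The vertical axis is CPM after TMM scaling on a log axis, each symbol is 1 heart and bars are group means (n = 3). The 3 aged donor hearts sit above all young donor hearts for Srsf2, Srsf4, Srsf7 and Srsf9, while Srsf5 runs from 157.1 to 281.4 CPM in young and from 145.9 to 198.8 CPM in aged donor hearts.

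Srsf5 belongs with Srsf4 and Srsf6 to the members that carry a pair of RNA recognition motifs and a long arginine-serine tail, and it is one of the cold-responsive genes followed in the study. It was read 4652, 3989 and 3804 times in young donor hearts 3, 13 and 15, and 6052, 3848 and 4368 times in aged donor hearts 3, 4 and 7. After scaling this came to 281.4, 253.6 and 157.1 CPM in young donor hearts and to 198.8, 145.9 and 167.4 CPM in aged donor hearts. Young donor hearts 3 and 13 were above every aged donor heart, and young donor heart 15 was below 2 of them. The means were 230.7 ± 65.3 CPM (SD, n = 3) and 170.7 ± 26.6 CPM (SD, n = 3), and the log2 fold change was -0.43 (standard error 0.283, 95% interval -1.12 to 0.25). The difference did not exceed the spread between hearts (edgeR, Benjamini-Hochberg adjusted p = 0.292; exact permutation test, two-sided, p = 0.3).

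The value of Srsf5 depended on young donor heart 15 and on the scaling. Without that heart the log2 fold change was -0.61, past the limits (edgeR, Benjamini-Hochberg adjusted p = 0.0477), and the 3 aged donor hearts then lay below both remaining young donor hearts. Scaling by library totals alone gave 0.078, since that scaling moved the median of all genes from 0.016 to 0.455. Relative to that median Srsf5 stood at -0.38 under library totals and at -0.45 under TMM. On the deposited FPKM scale, which also uses library totals, Srsf5 was 162.0 ± 19.9 (SD, n = 3) in young and 171.0 ± 35.0 (SD, n = 3) in aged donor hearts. Limma-voom with quality weights gave -0.70, past the limits (Benjamini-Hochberg adjusted p = 0.00587), and DESeq2 gave -0.45, not past them (Benjamini-Hochberg adjusted p = 0.280).

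The nearest relatives of Srsf5 did not share its lean. Srsf4, known for the longest tail of the subfamily, was at 78.5, 78.6 and 75.3 CPM in young donor hearts and at 87.2, 82.1 and 84.2 CPM in aged donor hearts. All aged donor hearts were higher, by a log2 fold change of 0.13 (standard error 0.146; edgeR, Benjamini-Hochberg adjusted p = 0.548). Srsf6, which binds exonic enhancers like its relatives, was at 185.9, 159.2 and 168.4 CPM in young donor hearts and at 194.3, 175.3 and 165.2 CPM in aged donor hearts. The groups overlapped, and the log2 fold change of 0.059 (standard error 0.183) lay well within the spread. Its sign was not settled, with -0.013 by limma-voom. Without young donor heart 15 the log2 fold changes were 0.14 for Srsf4 and 0.086 for Srsf6.

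Srsf7 and Srsf3 are close relatives that link splicing and 3′ end choice to mRNA export through NXF1, and Srsf7 alone among the members carries a zinc knuckle. Srsf7 was read 817, 632 and 1629 times in young donor hearts 3, 13 and 15, and 2559, 2245 and 2150 times in aged donor hearts 3, 4 and 7. Scaled, the values were 49.4, 40.2 and 67.3 CPM in young donor hearts and 84.0, 85.1 and 82.4 CPM in aged donor hearts. The aged donor hearts were tightly grouped and above all young donor hearts, among which heart 15 was the highest. The means were 52.3 ± 13.8 CPM and 83.9 ± 1.37 CPM (SD, n = 3 each), a 1.60-fold difference (log2 fold change 0.68, standard error 0.223, 95% interval 0.14 to 1.22). It was past the limits (unadjusted edgeR p = 0.0207) but not after Benjamini-Hochberg adjustment (adjusted p = 0.103; exact permutation test, two-sided, p = 0.1, the smallest possible). DESeq2 gave 0.67 (Benjamini-Hochberg adjusted p = 0.0487) and limma-voom 0.86 (Benjamini-Hochberg adjusted p = 0.00232). Without young donor heart 15 edgeR gave 0.94 (edgeR, Benjamini-Hochberg adjusted p = 0.00540). Without young donor heart 3, young donor heart 13, aged donor heart 4 or aged donor heart 7 the unadjusted edgeR p was 0.0705, 0.0699, 0.0525 and 0.0501, so that Srsf7 no longer passed the limits.

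Srsf3, the smallest member of the family, was at 217.9, 194.8 and 209.6 CPM in young donor hearts and at 247.3, 192.9 and 225.5 CPM in aged donor hearts. The groups overlapped, with the lowest and the highest value both in aged donor hearts. The log2 fold change was 0.097 (standard error 0.197; edgeR, Benjamini-Hochberg adjusted p = 0.736), and 0.14 without young donor heart 15.

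Srsf9 and Srsf1 are close relatives, and Srsf1 is the best known splicing activator of the family, needed for postnatal exon choice in mouse heart. Srsf9 was read 234, 227 and 493 times in young donor hearts 3, 13 and 15, and 944, 802 and 650 times in aged donor hearts 3, 4 and 7. Scaled, it stood at 14.2, 14.4 and 20.4 CPM in young donor hearts and at 31.0, 30.4 and 24.9 CPM in aged donor hearts. All aged donor hearts were above all young donor hearts, and young donor heart 15 was again the closest to them. The means were 16.3 ± 3.51 CPM and 28.8 ± 3.36 CPM (SD, n = 3 each), a 1.76-fold difference (log2 fold change 0.82, standard error 0.221, 95% interval 0.28 to 1.35). It was past the limits (unadjusted edgeR p = 0.00912) and not past 0.05 after Benjamini-Hochberg adjustment (adjusted p = 0.0919; exact permutation test, two-sided, p = 0.1). DESeq2 gave 0.80 (Benjamini-Hochberg adjusted p = 0.0139) and limma-voom 0.93 (Benjamini-Hochberg adjusted p = 0.00146). By edgeR, Srsf9 was past the limits without each heart in turn, with log2 fold changes of 0.72 to 1.05, the highest without young donor heart 15 (edgeR, Benjamini-Hochberg adjusted p = 0.00531).

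Srsf1 was at 240.2, 220.3 and 280.8 CPM in young donor hearts and at 295.2, 259.0 and 294.1 CPM in aged donor hearts. The groups overlapped through young donor heart 15 and aged donor heart 4. The log2 fold change was 0.19 (standard error 0.207; edgeR, Benjamini-Hochberg adjusted p = 0.513), and 0.34 without young donor heart 15.

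Srsf2, which binds exonic enhancers and also acts in transcription elongation, had 294.4, 278.5 and 328.4 CPM in young donor hearts and 374.0, 343.1 and 344.6 CPM in aged donor hearts. The aged donor hearts were higher without overlap, yet the log2 fold change of 0.24 (standard error 0.204) did not pass the test (edgeR, Benjamini-Hochberg adjusted p = 0.419). Srsf10, which turns into a splicing repressor when it loses its phosphates, had 37.1, 37.4 and 46.8 CPM in young donor hearts and 52.6, 44.4 and 50.9 CPM in aged donor hearts. Only young donor heart 15 and aged donor heart 4 overlapped, and the log2 fold change was 0.29 (standard error 0.173; edgeR, Benjamini-Hochberg adjusted p = 0.263). Srsf11, a divergent member that contacts U2AF, had 116.5, 103.7 and 113.5 CPM in young donor hearts and 137.3, 105.7 and 125.5 CPM in aged donor hearts. The groups overlapped, and the log2 fold change was 0.14 (standard error 0.181; edgeR, Benjamini-Hochberg adjusted p = 0.584). Without young donor heart 15 the values were 0.34 for Srsf2, 0.44 for Srsf10 and 0.20 for Srsf11. Srsf10 then had a Benjamini-Hochberg adjusted edgeR p of 0.0469 with a fold under the limit.

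**Figure D2:**
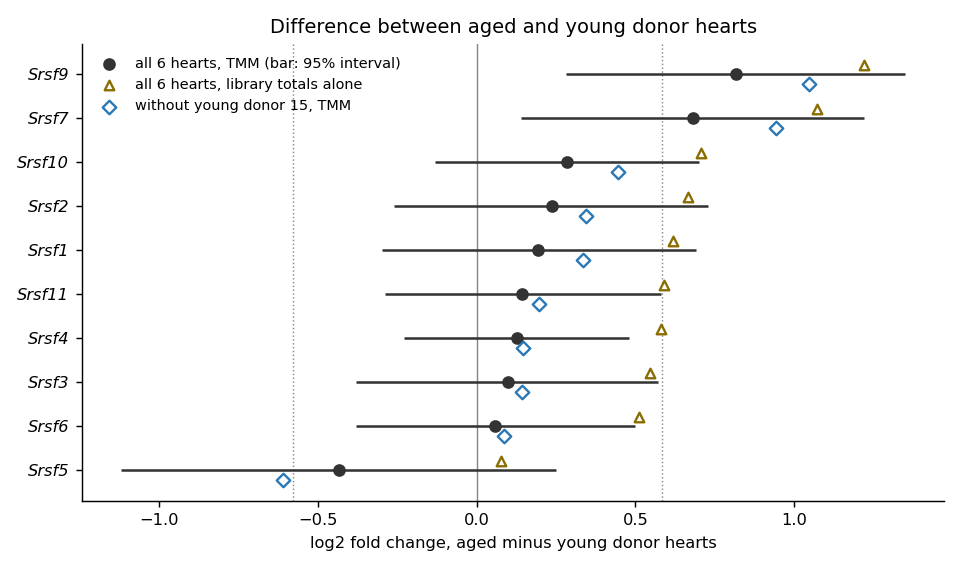
Log2 fold change of each member, aged against young donor hearts (n = 3 per group). Circles with bars are the edgeR values after TMM scaling with 95% intervals, triangles the values with library totals alone, diamonds those without young donor heart 15, and dotted lines the fold limits of 1.5 and 0.67. Under library totals all 10 values are positive, from 0.078 for Srsf5 to 1.22 for Srsf9, and Srsf5 keeps the lowest value in all 3 settings.

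Levels of different genes were compared on the deposited FPKM scale, which corrects for gene length. The annotated exonic lengths ran from 1051 bases (Srsf7) to 5290 bases (Srsf3), with 1180 for Srsf5, and the order and the shares below depend on them. In CPM, without that correction, Srsf2 and Srsf1 had higher means in young donor hearts than Srsf5 (300.4, 247.1 and 230.7 CPM). In young donor hearts Srsf5 led with 162.0 ± 19.9 FPKM, followed by Srsf2 with 138.1 ± 43.4 FPKM (SD, n = 3 each), and their ranges overlapped. A gap separated these from Srsf7, Srsf1, Srsf6, Srsf11, Srsf3, Srsf4 and Srsf10, whose means fell from 44.6 to 29.9 FPKM with every neighbouring pair overlapping. Srsf9 came last with 13.3 ± 6.0 FPKM, below the range of Srsf10. In aged donor hearts Srsf2 led with 219.4 ± 21.4 FPKM, Srsf5 followed with 171.0 ± 35.0 FPKM, and these overlapped. Srsf7 came next with 93.9 ± 4.58 FPKM and overlapped neither neighbour, and Srsf9 was last with 30.9 ± 4.38 FPKM.

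Heart by heart, Srsf5 had the highest FPKM of the members in young donor hearts 3 and 13. Srsf2 had the highest in young donor heart 15 and in all 3 aged donor hearts. The FPKM ratio of Srsf5 to Srsf2 was 1.54, 1.47 and 0.77 in young donor hearts and 0.86, 0.69 and 0.78 in aged donor hearts (exact permutation test of the log2 ratio, two-sided, p = 0.3). The ratio of Srsf5 to Srsf9 was 18.5, 16.3 and 7.17 in young donor hearts and 5.95, 4.46 and 6.24 in aged donor hearts. Of the 9 ratios of Srsf5 to another member, this was the only one whose groups did not overlap (exact permutation test, two-sided, p = 0.1, and 0.337 after Benjamini-Hochberg adjustment over the 9).

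In the makeup of the family, young donor hearts 3 and 13 stood apart from the other 4 hearts. Srsf5 made up 33.8%, 33.3% and 20.6% of the summed FPKM of the 10 members in young donor hearts 3, 13 and 15, and 21.9%, 18.6% and 20.3% in aged donor hearts 3, 4 and 7. For Srsf7 the shares were 6.66%, 5.93% and 9.88% in young donor hearts, against 10.4%, 12.2% and 11.2% in aged donor hearts. Srsf9 made up 1.83% to 2.87% in young and 3.24% to 4.17% in aged donor hearts. By subfamily, Srsf4, Srsf5 and Srsf6 together held 41.8% ± 7.45 in young and 32.8% ± 1.3 in aged donor hearts (SD, n = 3 each; exact permutation test, two-sided, p = 0.2). Srsf3 and Srsf7 together held 13.4% ± 2.31 and 17.1% ± 0.612 (SD, n = 3 each; exact permutation test, two-sided, p = 0.1). The summed FPKM of the family ran from 472.4 to 704.1 in young and from 751.6 to 953.8 in aged donor hearts, and in CPM after TMM from 1380.6 to 1515.4 and from 1463.8 to 1701.6, so the groups separated on the former scale and overlapped on the latter.

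**Figure D3:**
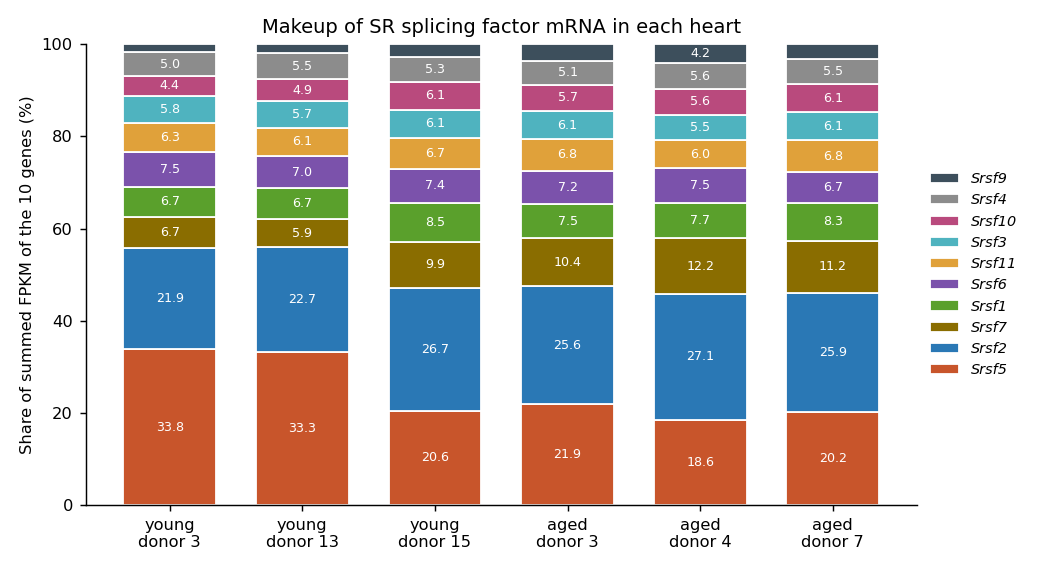
Share of each member in the summed FPKM of the 10 SR splicing factors (percent) in each of the 6 hearts, 1 bar per heart. The Srsf5 segment takes 33.8% and 33.3% in young donor hearts 3 and 13 and 18.6% to 21.9% in the other 4 hearts, where the Srsf7 segment is wider.

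A ratio within a library does not depend on library scaling, and each member was set against the geometric mean of the other 9. The log2 ratio of Srsf5 was 1.55, 1.52 and 0.56 in young donor hearts and 0.64, 0.37 and 0.51 in aged donor hearts, a difference of -0.70 with overlapping groups (exact permutation test, two-sided, p = 0.2). Leaving out young donor heart 15 made it -1.03. Srsf7 differed by 0.54 and Srsf9 by 0.67, with all aged donor hearts above all young donor hearts. Srsf3 differed by -0.15 and Srsf6 by -0.19, with all aged donor hearts below. For these 4 members the exact permutation test, two-sided, gave p = 0.1, and 0.25 after Benjamini-Hochberg adjustment over the 10 members. With the summed FPKM of the other 9 as the reference, dominated by Srsf5 and Srsf2, the differences of Srsf3 and Srsf6 shrank to -0.002 and -0.037, while those of Srsf7 and Srsf9 were 0.68 and 0.76. The remaining 5 members overlapped, with differences of -0.114 to 0.069. Relative to the other members, then, the values of Srsf7 and Srsf9 lay higher in aged donor hearts under each reference and without each heart in turn, 0.40 to 0.72 and 0.56 to 0.82 respectively over the fits without 1 heart.

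Across the 6 hearts the centred values of Srsf5 differed from those of its family. Patterns were compared as the root mean square difference between log2 CPM values centred on each gene's mean. This difference grows with how far a gene varies as well as with the shape of its pattern, and these were not separated. Srsf5 had centred values of 0.53, 0.38 and -0.31 in young donor hearts 3, 13 and 15, against 0.03, -0.42 and -0.22 in aged donor hearts 3, 4 and 7. Its nearest member was Srsf6 at 0.351, and 2718 of 12948 genes outside the family with at least 1 CPM on average were nearer than that. Its farthest member was Srsf9 at 0.765. The 36 pairs without Srsf5 had a median difference of 0.15 (0.025 to 0.435). The 9 pairs with it had a median of 0.464 (0.351 to 0.765), so the ranges overlapped. The closest pair was Srsf3 and Srsf11 at 0.025.

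The 5 genes nearest to Srsf5 were Ppm1d (0.037), a phosphatase of the p53 response, Cep95 (0.064), a centrosomal protein gene, Kmt5b (0.065), a histone H4 methyltransferase gene, Rsrp1 (0.069), an arginine and serine rich protein gene, and Chd2 (0.075), a chromatin remodeller. They were chosen for this likeness, so their values are a description. All 5 were highest in young donor heart 3 and lowest in aged donor heart 4, as Srsf5 was. Rsrp1, the most abundant of them, had means of 316.6 CPM in young and 225.4 CPM in aged donor hearts, and the 5 log2 fold changes ran from -0.34 to -0.49, with 0 past the limits. The 6 points share their libraries and scaling.

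**Figure D4:**
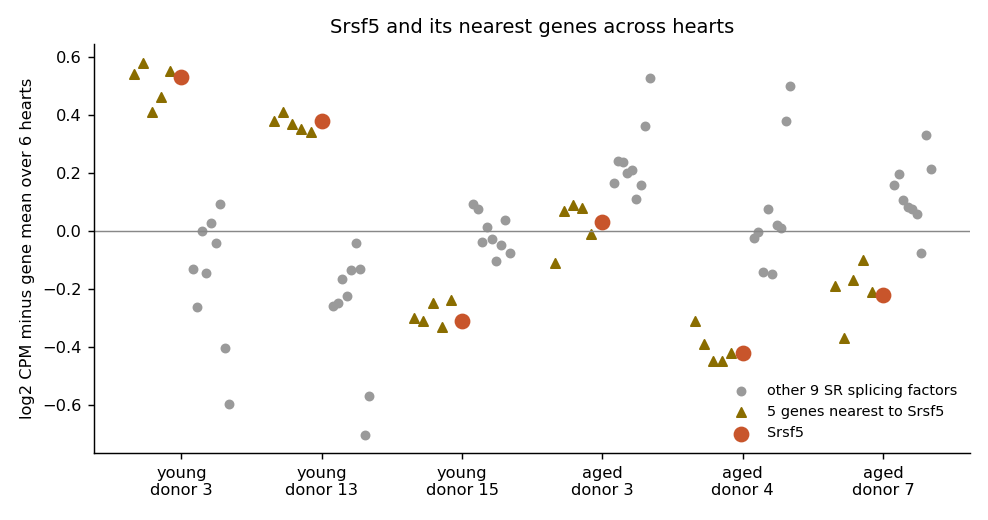
Log2 CPM minus the mean of each gene over the 6 hearts, by heart. The large circle is Srsf5, triangles are the 5 genes outside the family nearest to it and grey points the other 9 members. Srsf5 stands at 0.53 and 0.38 in young donor hearts 3 and 13, above the other members, and below all of them in young donor heart 15 and in the 3 aged donor hearts.

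The genes that act on SR proteins were taken from lists written by hand. Of 8 tested SR protein kinases, 1 was higher and 2 lower past the limits (12.5% and 25%, against 13.2% and 19% of all genes). Their median log2 fold change was -0.46. Srpk1, the main cytoplasmic SR kinase, was read 756, 769 and 1560 times in young donor hearts and 2900, 2082 and 2549 times in aged donor hearts (53.0 ± 10.0 against 90.6 ± 10.2 CPM, SD, n = 3 each). The aged donor hearts were higher without overlap, with a log2 fold change of 0.77 (edgeR, Benjamini-Hochberg adjusted p = 0.0916). Clk1, a nuclear SR kinase whose activity responds to temperature, had 182.4 ± 56.2 CPM in young and 100.8 ± 12.2 CPM in aged donor hearts (SD, n = 3 each; log2 fold change -0.86; edgeR, Benjamini-Hochberg adjusted p = 0.103). Srpk3, the muscle-restricted SR kinase, was read 1526, 1521 and 1113 times in young donor hearts and 20, 449 and 267 times in aged donor hearts (log2 fold change -3.08; edgeR, Benjamini-Hochberg adjusted p = 0.104). Its lowest count was in aged donor heart 3, the heart with the lowest cardiomyocyte marker sum (595.1 CPM). The part of cell makeup in the values of Srpk3 was not tested.

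The 5 genes for the transport of SR proteins and mRNA had a median log2 fold change of 0.42. Past the limits 1 was higher and 0 lower (20% and 0%, against 13.2% and 19% of all genes). The former was Nxt1, the partner of the export receptor NXF1, at 11.2 ± 7.55 CPM in young and 25.5 ± 1.47 CPM in aged donor hearts (SD, n = 3 each; log2 fold change 1.18; edgeR, Benjamini-Hochberg adjusted p = 0.130). Tnpo3, the import receptor of SR proteins, had a log2 fold change of 0.29 and did not pass. The median of 31 SR-related proteins was -0.02. Of them 2 were higher and 0 lower (6.45% and 0%, against 13.2% and 19% of all genes). These were U2af1, the small subunit that reads the 3′ splice site (log2 fold change 0.63; edgeR, Benjamini-Hochberg adjusted p = 0.117), and Srsf12, with 10 to 52 reads per heart (1.01; edgeR, Benjamini-Hochberg adjusted p = 0.130).

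The hnRNP proteins often oppose SR proteins at splice sites. Of 25 tested, 3 were higher and 1 lower (12% and 4%, against 13.2% and 19% of all genes), with a median of 0.20. Hnrnpf was at 246.3 ± 87.5 CPM in young and 430.2 ± 25.3 CPM in aged donor hearts (SD, n = 3 each; log2 fold change 0.80), Ptbp3 had a log2 fold change of 0.93 and Hnrnpab, with 15 to 107 reads, of 1.2, while Hnrnph3 had -0.77 (edgeR, Benjamini-Hochberg adjusted p = 0.109 to 0.134 for the 4). The 11 splicing regulators known for heart and muscle exon programmes had a median of -0.86. Of them 0 were higher and 4 lower (0% and 36.4%, against 13.2% and 19% of all genes). Rbfox1 was read 1532, 1649 and 61 times in young donor hearts and 19, 43 and 85 times in aged donor hearts (log2 fold change -5.18; edgeR, Benjamini-Hochberg adjusted p = 0.0917), and young donor heart 15 stood with the aged donor hearts. Rbm24 had -3.74, Rbpms -1.22 and Rbfox2 -0.92 (edgeR, Benjamini-Hochberg adjusted p = 0.0916 to 0.103). Over these 5 lists 14 of 80 genes tested were past the limits in either direction (17.5%, against 32.2% of all genes). Leaving out young donor heart 15 gave 27 (33.8%, against 51.1%). Without another heart 4 to 10 passed (5% to 12.5%, against 17.3% to 25.3% of all genes). The 14 genes had the same direction without young donor heart 15. Of them, 11 then had a Benjamini-Hochberg adjusted p under 0.05 by edgeR, where 6815 of all 14109 genes tested did. The 14 genes had been picked in the fit to all hearts, and both fits share the remaining hearts. The kept direction is therefore not a separate test, and the share of all genes past the limits that kept theirs is not given. Of the 11 cardiac regulators 4 had a positive log2 fold change. The cardiomyocyte marker sum was lower in all 3 aged donor hearts, and its part in the values of the cardiac regulators was not tested.

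In the KEGG spliceosome pathway, as the table assigns it, 124 of 127 genes were tested, 9 SR members included. Past the limits 17 were higher, 2 of them Srsf7 and Srsf9, and 1 was lower. This was 13.7% higher against 13.2% of all genes and 0.806% lower against 19%. The median log2 fold change was 0.36, with 100 of 124 positive. With library totals as the scaling 37.1% were higher, against 22.8% of all genes. Among those past the limits the highest were Hspa1b, a heat shock chaperone with 8 to 204 reads per heart and a near-identical neighbour, at 2.27, and Snrpa, an RNA-binding protein of the U1 particle, at 1.22. The lowest among them were Rbmx, an hnRNP-like splicing regulator, at -0.96 and Ppie, a spliceosomal cyclophilin, at 0.59 (edgeR, Benjamini-Hochberg adjusted p = 0.0916 to 0.136 for the 4). Without young donor heart 15, 54 were higher and 5 lower (43.5% and 4.03%, against 26.9% and 24.2% of all genes). Without the other hearts in turn 2 to 9 were higher (1.61% to 7.26%, against 5.83% to 9.97% of all genes). In each of those fits the share was below that of all genes.

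**Figure D5:**
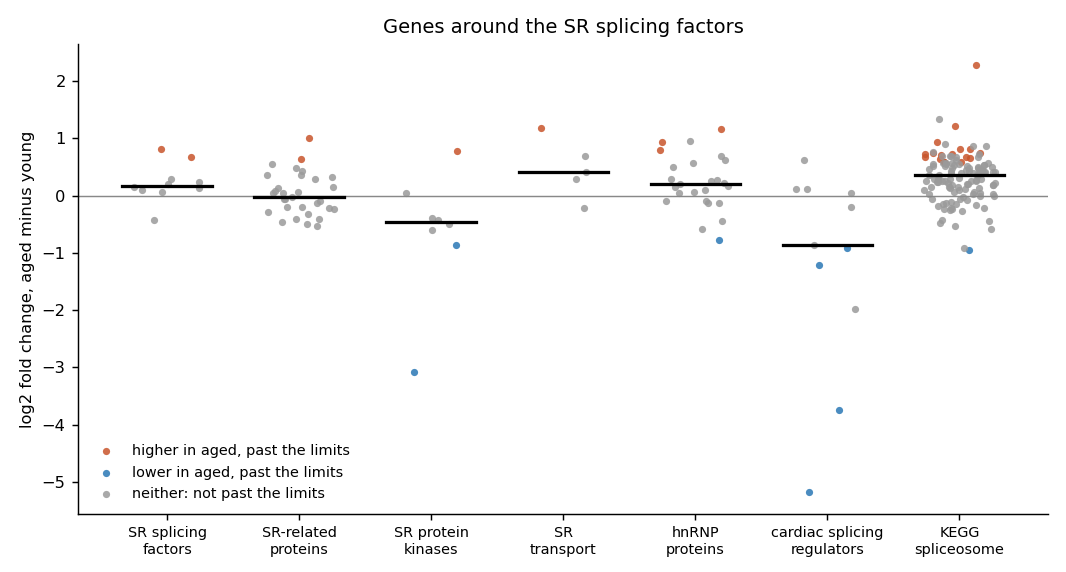
Log2 fold change of every tested gene in the SR family and in the lists around it, 1 point per gene, with black bars at list medians. Orange and blue mark genes past the limits. The cardiac splicing regulators and the SR protein kinases have the lowest medians (-0.86 and -0.46), and the SR factors sit at 0.17 with 2 of 10 past the limits.

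Among the cold-responsive genes, Srsf5 stood beside Cirbp, Rbm3 and Rtn3. Cirbp, a cold-inducible RNA-binding protein, was lower past the limits (42.5 ± 20.5 against 19.1 ± 2.89 CPM, SD, n = 3 each; log2 fold change -1.15; edgeR, Benjamini-Hochberg adjusted p = 0.117), with overlapping groups through young donor heart 15. Without that heart it was -1.47 (edgeR, Benjamini-Hochberg adjusted p = 0.00228). Rbm3, its close relative, was higher past the limits (117.9 ± 33.0 against 256.4 ± 64.5 CPM, SD, n = 3 each; log2 fold change 1.12; edgeR, Benjamini-Hochberg adjusted p = 0.0919), and 1.41 without young donor heart 15 (edgeR, Benjamini-Hochberg adjusted p = 0.00860). Rtn3, a reticulon of the endoplasmic reticulum, was at -0.031, and at 0.039 without that heart.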

How the data were processed

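Gene expression was measured by RNA-Seq of poly(A)-selected RNA from the left ventricle of 3 young and 3 aged donor hearts. The authors deposited a single table with the raw read count and the FPKM value of each gene in each heart, and with gene coordinates and KEGG assignments. The counts were deposited raw. The authors' FPKM values equal the count over gene length and library total, within 0.01% for all 60 values of the SR factors. The submitters' processing notes name HISAT2 2.0.5, StringTie 1.3.3b, featureCounts 1.5.0-p3, DESeq2 1.16.1, GATK 3.7 and the build Rnor_6.0, and the use of strand is not given in the sources used here. All per-heart columns were used.

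Counts were analysed with edgeR 4.0.16 in R 4.3.3 (filterByExpr, TMM, glmQLFit and glmQLFTest, no covariates) on all genes, and p-values were adjusted by the Benjamini-Hochberg method over the 13784 genes tested. The limits (more than 1.5-fold or less than 0.67-fold, unadjusted p under 0.05) are those of the paper. CPM values are counts over TMM-scaled library sizes, log2 CPM used a prior count of 2, and standard errors were taken from the F statistic. Single values were compared by two-sided exact permutation tests over the 6 hearts (scipy 1.17.1). The steps were tested on simulated data.

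Alternatives were DESeq2 size factors, library totals, other filters, DESeq2 1.42.0, limma-voom (limma 3.58.1) with quality weights, adjusted p-values, other reference levels and each heart left out in turn. The SR members, the lists around them, the cell type markers and the motifs were chosen with earlier results of these data known. Named were all members, the 5 genes with at least 1 CPM nearest to Srsf5 in centred log2 CPM, the members past the limits of each list (of the KEGG list, the 2 highest and the 2 lowest of them) and the cold shock genes. Tnpo3 was named after its values were seen. Shares of all genes per setting and strands around each member were added after the values were seen. Promoters and motif shares come from a RefSeq table of GRCr8, matched by symbol. Protein sequences were not used here.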

Additional observations from a re-analysis of the deposited data

How the results depend on the processing

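No paired analysis was made, because each heart came from a different donor and animal numbers count within a group. Of the SR members, 1 in place of 2 was higher past the limits without young donor heart 3, young donor heart 13, aged donor heart 4 or aged donor heart 7, and 0 with adjusted p-values by edgeR (range 1 to 2 without 1 heart). Without those hearts in turn 5.83% to 9.97% of all genes were higher. The count of lower members was 1 by limma-voom with quality weights and without young donor heart 15 (0 to 1 without 1 heart), that member being Srsf5. In these settings 27.7% and 24.2% of all genes were lower. The log2 fold change of Srsf5 was 0.078 with library totals alone, -0.70 by limma-voom and -0.61 without young donor heart 15 (-0.61 to -0.27 without 1 heart). The median over the members was 0.60 with library totals, through the shift of all genes. Members whose groups did not overlap numbered 7 without young donor heart 15 and 8 without aged donor heart 4 (4 to 8), where 73.3% and 53.4% of all genes did not overlap. Without each other heart there were 4, against 43.9% to 50.1% of all genes. Over all genes 7504 passed the limits by limma-voom, 2432 to 7214 without 1 heart and 0 with adjusted p-values by edgeR, against 4436. In the related lists 29, 4 to 27 and 0 passed, against 14. As shares these were 36.2% by limma-voom and 5% to 33.8% without 1 heart, against 54.4% and 17.3% to 51.1% of all genes. Srsf6 turned to -0.013 by limma-voom and ran from -0.00038 to 0.12 without 1 heart. The ratio to the other members, with their summed FPKM as the reference, turned to 0.11 for Srsf1, 0.034 for Srsf4 and 0.045 for Srsf11. With the geometric mean of the other members as the reference, the ratio without 1 heart changed sign for Srsf1, Srsf2 and Srsf10. It ran from -0.077 to 0.032 for Srsf1 (positive without young donor heart 15). For Srsf2 it ran from -0.014 to 0.042 (negative without young donor heart 3 or aged donor heart 4). For Srsf10 it ran from -0.007 to 0.15 (negative without young donor heart 3). The causes were not tested. With DESeq2 size factors, either other filter on low counts or DESeq2's own test, 2 members were higher and 0 lower past the limits. In these settings 11.5% to 15.6% of all genes were higher and 16.2% to 21.2% lower. With 3 hearts a group the 95% interval of Srsf5 by edgeR ran from -1.12 to 0.25.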
